A study of Mus musculus with 6 samples.

Results

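The chemokine genes Ccl3, Ccl4, Ccl5 and Xcl1 were followed through 15 accessible regions, out of 24605 in the count matrix, in mouse CD8+ T cells cultured with palmitate. A region was taken when it overlapped one of the 4 genes, or when the nearest end of any protein-coding gene belonged to one of them and lay within 50 kb (mm10, RefSeq gene spans). Ccl3 had 4 regions, one of which also overlapped Ccl4, Ccl4 had 2 more, Ccl5 had 2 and Xcl1 had 7. Of the 15, 2 lay within 1 kb of a gene end, 2 inside a gene and 11 between genes. Assignment by distance does not make a gene the target of a region.

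The libraries were 3 of CD8+ T cells given palmitate, a saturated fatty acid, at 100 µM, and 3 of control cells, both after 48 hours. All cells were from wild-type mice and, per the labels, from pancreas, spleen and lymph nodes. The culture text of all 6 libraries names palmitate in T cell medium, so what the control cells received in its place is not given in the sources used here, nor whether replicates came from separate animals or cultures. A p-value here compares libraries, whose spread may be technical and need not hold for other animals. In ATAC-seq the Tn5 transposase cuts open DNA, so the counts in a region measure accessibility, not transcription, and in a bulk library fewer cells with an open site cannot be told apart from less opening per cell.

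Chemokines are small secreted proteins that draw leukocytes along a gradient through G protein-coupled receptors. Activated CD8+ T cells release CCL3, CCL4 and CCL5, which draw T cells and myeloid cells, and CCL3 and CCL5 act through CCR1 among other receptors. XCL1 acts through XCR1, carried by the dendritic cells that cross-present antigen to CD8+ T cells. Ccl3, Ccl4 and Ccl5 lie in a cluster of CC chemokine genes on chromosome 11, and Xcl1 lies alone on chromosome 1.

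RefSeq promoter windows (GRCm38.p6, the assembly of mm10) were matched for 2 of the 4 genes, Ccl3 and Xcl1, and not for Ccl4 and Ccl5. The 250 bases before each annotated start are shown because they lie wholly inside the regions at the ends of these genes, of which that of Ccl3 passed the test and that of Xcl1 did not. The difference between these 2 regions was not tested. Both are on the minus strand and are written 5′ to 3′, with matches to the motifs searched in capitals, at chr11:83649379-83649628 for Ccl3 and chr1:164935523-164935772 for Xcl1.
Ccl3: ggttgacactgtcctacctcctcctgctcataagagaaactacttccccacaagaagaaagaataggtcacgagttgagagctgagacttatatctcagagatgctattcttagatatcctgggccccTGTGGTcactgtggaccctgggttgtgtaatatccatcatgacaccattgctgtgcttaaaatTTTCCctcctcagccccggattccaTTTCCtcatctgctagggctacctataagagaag
Xcl1: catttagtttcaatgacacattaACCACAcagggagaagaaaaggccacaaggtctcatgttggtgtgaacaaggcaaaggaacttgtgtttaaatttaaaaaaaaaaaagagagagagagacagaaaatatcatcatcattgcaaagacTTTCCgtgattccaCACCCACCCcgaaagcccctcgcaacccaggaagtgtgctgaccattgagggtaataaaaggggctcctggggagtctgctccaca
In the Ccl3 sequence the capitals mark 1 RUNX match (TGTGGT) and 2 NFAT core matches (GGAAA, here as its reverse complement TTTCC). In the Xcl1 sequence they mark 1 RUNX match (as ACCACA), 1 NFAT core match and 2 KLF core matches (CACCC) that overlap each other by a base. Neither 300-base window, which runs from 250 bases before the start to 50 after, held the letters of AP-1 (TGANTCA), CRE (TGACGTCA), the T-box core (AGGTGT), the IRF element or kappa B on either strand. Among 32817 RefSeq promoter windows of this length, 61.3% held the NFAT core, 57.5% the KLF core and 16.8% the RUNX letters. The matches are a description of the sequence, not sites shown to be bound.

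Accessibility at the chemokine loci was lower with palmitate at 4 of the 15 regions, and at none was it higher. The 4 were 1 region near each gene: 4.18 kb from Ccl5, at the end of Ccl3, inside the annotated span of Ccl4, and 40.3 kb from Xcl1. All 15 passed the filter on low counts. Over all 24316 regions tested in edgeR's quasi-likelihood test (TMM factors, Benjamini-Hochberg adjusted p below 0.05), 12.7% were lower and 11.9% higher. Regions between genes, the class of 11 of the 15, were lower in 18.4% and higher in 2.66%, and 2 of these 11 were lower. Regions inside genes were lower in 19.6% and higher in 4.3%, and 1 of the 2 chemokine regions of this class was lower. At an unadjusted p below 0.05 the same test gave 4 lower and 0 higher chemokine regions, where 19.7% of all regions were lower and 16.8% higher. When each library's scaling was instead allowed to vary smoothly with how strong a region is (trended offsets), 0 of the 15 passed, against 4.36% lower and 2.09% higher over all regions, and at an unadjusted p below 0.05 there were 3 lower and 0 higher, where 11.9% of all regions were lower and 10.01% higher. The DESeq2 Wald test also gave 0 lower and 0 higher, while it called 5.08% of all regions lower and 7.76% higher. At an unadjusted p below 0.05 it gave 4 lower and 0 higher, where 11.9% of all regions were lower and 14.03% higher. Without palmitate 1 the lower regions numbered 2, and without palmitate 3, control 1 or control 3 they numbered 1 in each case.

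The median log2 fold change, palmitate over control, was -0.13 over the 15 regions, against -0.05 over all tested regions and -0.25 over all regions between genes. It was negative at 14 of the 15, while 54.3% of all tested regions had a negative value, as did 72.0% of those between genes, 69.8% of those inside genes and 28.2% of those at gene ends. With trended offsets 9 of the 15 were negative, and 6 of the 11 between genes, against 48.3% of all tested regions and 53.4% of those between genes. Summed over the 15 regions, the signal was 250, 269 and 271 CPM (reads of a region scaled to a common TMM library size) in palmitate libraries 1 to 3, against 309, 301 and 323 CPM in controls 1 to 3. The groups did not overlap in this sum, which was not computed with trended offsets or for comparable sets of other regions. In 5 single regions, all with lower values in palmitate, the groups did not overlap either, where 21% of all tested regions had palmitate libraries wholly below the controls and 38.9% were apart in either direction.

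**Figure D1:**
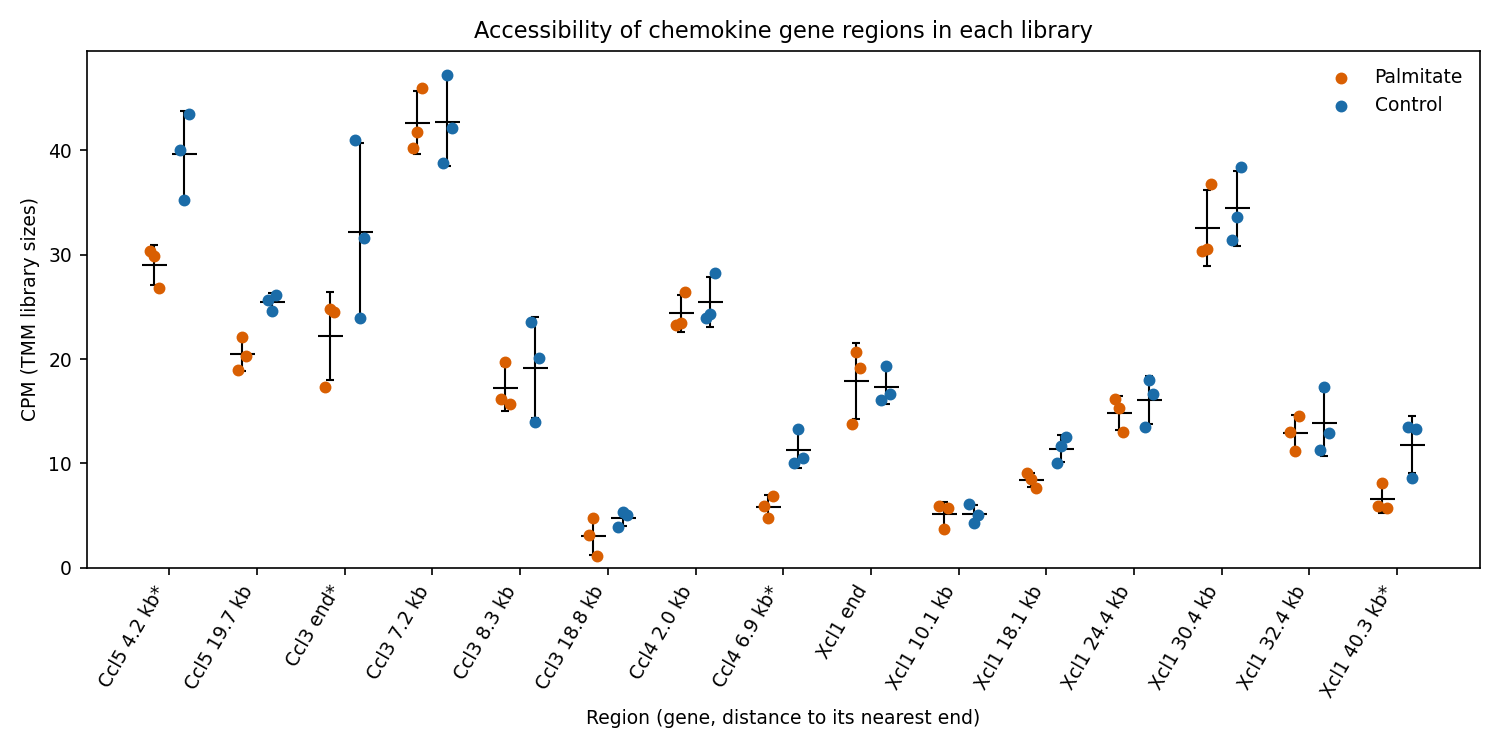
Accessibility in CPM (y axis) of the 15 chemokine regions (x axis, named by gene and distance to its nearest end) in each palmitate and control library; points are libraries, black bars the mean ± SD (n = 3), and asterisks mark the 4 regions lower with palmitate at an edgeR adjusted p below 0.05. The Ccl5 region at 4.2 kb has all palmitate points below all control points, while the Ccl3 end has 1 control point at 24.0 CPM among the palmitate points.

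Both Ccl5 regions were weaker in every palmitate library than in any control, as were 21% of all tested regions. The nearer one passed the test and the farther did not. CCL5 is among the chemokines of memory and effector CD8+ T cells. No region of the matrix overlapped the Ccl5 gene itself (chromosome 11, 83525778 to 83530518), and both assigned regions lay beyond its higher-coordinate end. The nearer, 4.18 kb away (83534700 to 83535385, 685 bp), had 30.4, 29.9 and 26.8 CPM in palmitate libraries 1 to 3, against 40.1, 35.3 and 43.5 CPM in controls 1 to 3. All palmitate libraries lay below all controls. The means were 29.0 ± 1.91 CPM with palmitate and 39.6 ± 4.15 CPM in control (SD, n = 3 each), and the log2 fold change was -0.45 with an SE of 0.14 (edgeR adjusted p 0.0219). Trended offsets gave the same fold change of -0.45 with an edgeR adjusted p of 0.0579. The call was lost in DESeq2 (adjusted p 0.143). It was also lost without control 1 (edgeR adjusted p 0.0539), without control 3 (0.149) and without palmitate 3 (0.100).

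The farther Ccl5 region, 19.7 kb away (83550216 to 83550644) and 22.3 kb from Ccl9, had 18.9, 22.1 and 20.3 CPM with palmitate and 25.7, 24.6 and 26.2 CPM in control. The groups did not overlap, but the log2 fold change of -0.31 ± 0.17 (SE) did not pass (edgeR adjusted p 0.188). Count ratios of the nearer to the farther region do not depend on a single scaling factor per library. Scaling that varies with region strength, as trended offsets do, can still change them. The ratios were 1.60, 1.35 and 1.32 in palmitate libraries and 1.56, 1.43 and 1.66 in controls. These ratios, chosen after the values were seen, overlapped (exact permutation p 0.3, two-sided). With 3 against 3 this test cannot give less than 0.1, so it does not show that the regions changed alike. Summed over both regions Ccl5 had 49.5 ± 2.42 CPM with palmitate and 65.1 ± 4.94 CPM in control (SD, n = 3 each).

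At Ccl3, which encodes an inflammatory chemokine for monocytes and T cells, the region over the gene's start was the member of its set that passed the test. It was lower with palmitate. It spans chromosome 11, 83649155 to 83649892, holds the promoter sequence shown above, and also overlaps the span the gene table gives Ccl4. It had 17.3, 24.8 and 24.5 CPM in palmitate libraries 1 to 3, against 41.0, 24.0 and 31.6 CPM in controls 1 to 3. The groups overlapped, since control 2 lay below palmitate libraries 2 and 3. The means were 22.2 ± 4.23 CPM with palmitate and 32.2 ± 8.52 CPM in control (SD, n = 3 each), and the log2 fold change was -0.51 with an SE of 0.19 (edgeR adjusted p 0.0429). Over all regions at gene ends 2.47% were lower and 25% higher with TMM, and 1 of the 2 chemokine regions of this class was lower. These shares were not computed with trended offsets. There 39.0% of regions at gene ends had a negative fold change, against 28.2% with TMM.

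The Ccl3 call passed in 8 of 17 alternatives, against 12 of 17 for Ccl5, 13 of 16 for Ccl4 and 10 of 16 for Xcl1. In each of these counts 1 pass was fixed in advance. It is that of a false discovery rate of 0.1 in the main fit, which every region called at 0.05 passes. The Ccl3 call was lost with trended offsets (log2 fold change -0.46, edgeR adjusted p 0.143), in DESeq2 (0.172), in limma-voom (0.0700), with a replicate block (edgeR 0.0616) and with DESeq2 size factors in edgeR (0.0577). It was also lost without control 1 (log2 fold change -0.31, edgeR adjusted p 0.278), control 3 (0.117), palmitate 1 (0.214) or palmitate 3 (0.0721), and without control 2 the log2 fold change was -0.68 (edgeR adjusted p 0.00298).

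The other 3 Ccl3 regions lay beyond the gene's 3′ side and none passed. The one 7.18 kb away (83640062 to 83640668), the strongest of all 15, had 40.2, 41.8 and 46.0 CPM with palmitate and 38.8, 47.2 and 42.2 CPM in control. Its log2 fold change was -0.0098, with a 95% interval from -0.26 to 0.24 (normal, from the SE), so the data do not exclude a change within these limits. The region at 8.31 kb had 17.2 ± 2.19 CPM with palmitate and 19.2 ± 4.84 CPM in control (SD, n = 3 each). The one at 18.8 kb held 3 to 14 reads per palmitate library and 9 to 16 per control, and its log2 fold change of -0.64 ± 0.41 (SE) was not distinguishable from zero at this depth (edgeR adjusted p 0.263). Relative to the 7.18 kb region, the Ccl3 end had count ratios of 0.431, 0.593 and 0.533 in palmitate libraries and 1.06, 0.507 and 0.750 in controls. Their exact permutation p was 0.3 (two-sided), where the smallest possible is 0.1, so the test could not decide whether the regions differ.

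Ccl4 encodes a close relative of CCL3 that also attracts T cells and monocytes. The table gives it a span of 16060 bp (83648624 to 83664683) that runs into Ccl3 and joins a curated and a predicted transcript, so a region inside this span need not lie inside the gene as transcribed in these cells. The region at 83657431 to 83657791, between the Ccl3 start and the far end of Ccl4, had the most negative log2 fold change of the 15 with all 6 libraries. Without palmitate 2 it was -0.817, against -0.996 at the Xcl1 region at 40.3 kb and -1.16 at the Ccl3 region at 18.8 kb. Without control 2 it was -0.819, against -0.999 at that Xcl1 region. With all libraries the Ccl4 region had 5.91, 4.76 and 6.90 CPM in palmitate libraries 1 to 3, against 10.0, 13.3 and 10.5 CPM in controls 1 to 3. Every palmitate library lay below every control. The means were 5.86 ± 1.07 CPM with palmitate and 11.3 ± 1.77 CPM in control (SD, n = 3 each), and the log2 fold change was -0.96 with an SE of 0.28 (edgeR adjusted p 0.0131). These values rest on 14 to 18 reads per palmitate library and 23 to 40 per control, and the region was in 0 of 3 palmitate and 2 of 3 control peak lists. With trended offsets the log2 fold change was -0.59 (edgeR adjusted p 0.214). The call was also lost in DESeq2 (adjusted p 0.0907) and without palmitate 2 (edgeR adjusted p 0.0758).

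The second region inside the Ccl4 span, 1.99 kb from its far end (83662152 to 83662690), did not pass (edgeR adjusted p 0.804). It had 23.3, 23.4 and 26.5 CPM with palmitate and 24.0, 24.3 and 28.2 CPM in control, a log2 fold change of -0.069 with a 95% interval from -0.40 to 0.26 (normal, from the SE). The count ratio of the weaker to the stronger Ccl4 region was 0.254, 0.203 and 0.261 in palmitate libraries and 0.418, 0.548 and 0.373 in controls. The ratios did not overlap, and their exact permutation p of 0.1 (two-sided) is the smallest that 3 against 3 can give. Over the 4 such ratios computed, 1 per gene and chosen after the values were seen, the Benjamini-Hochberg adjusted p was 0.3 for each.

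**Figure D2:**
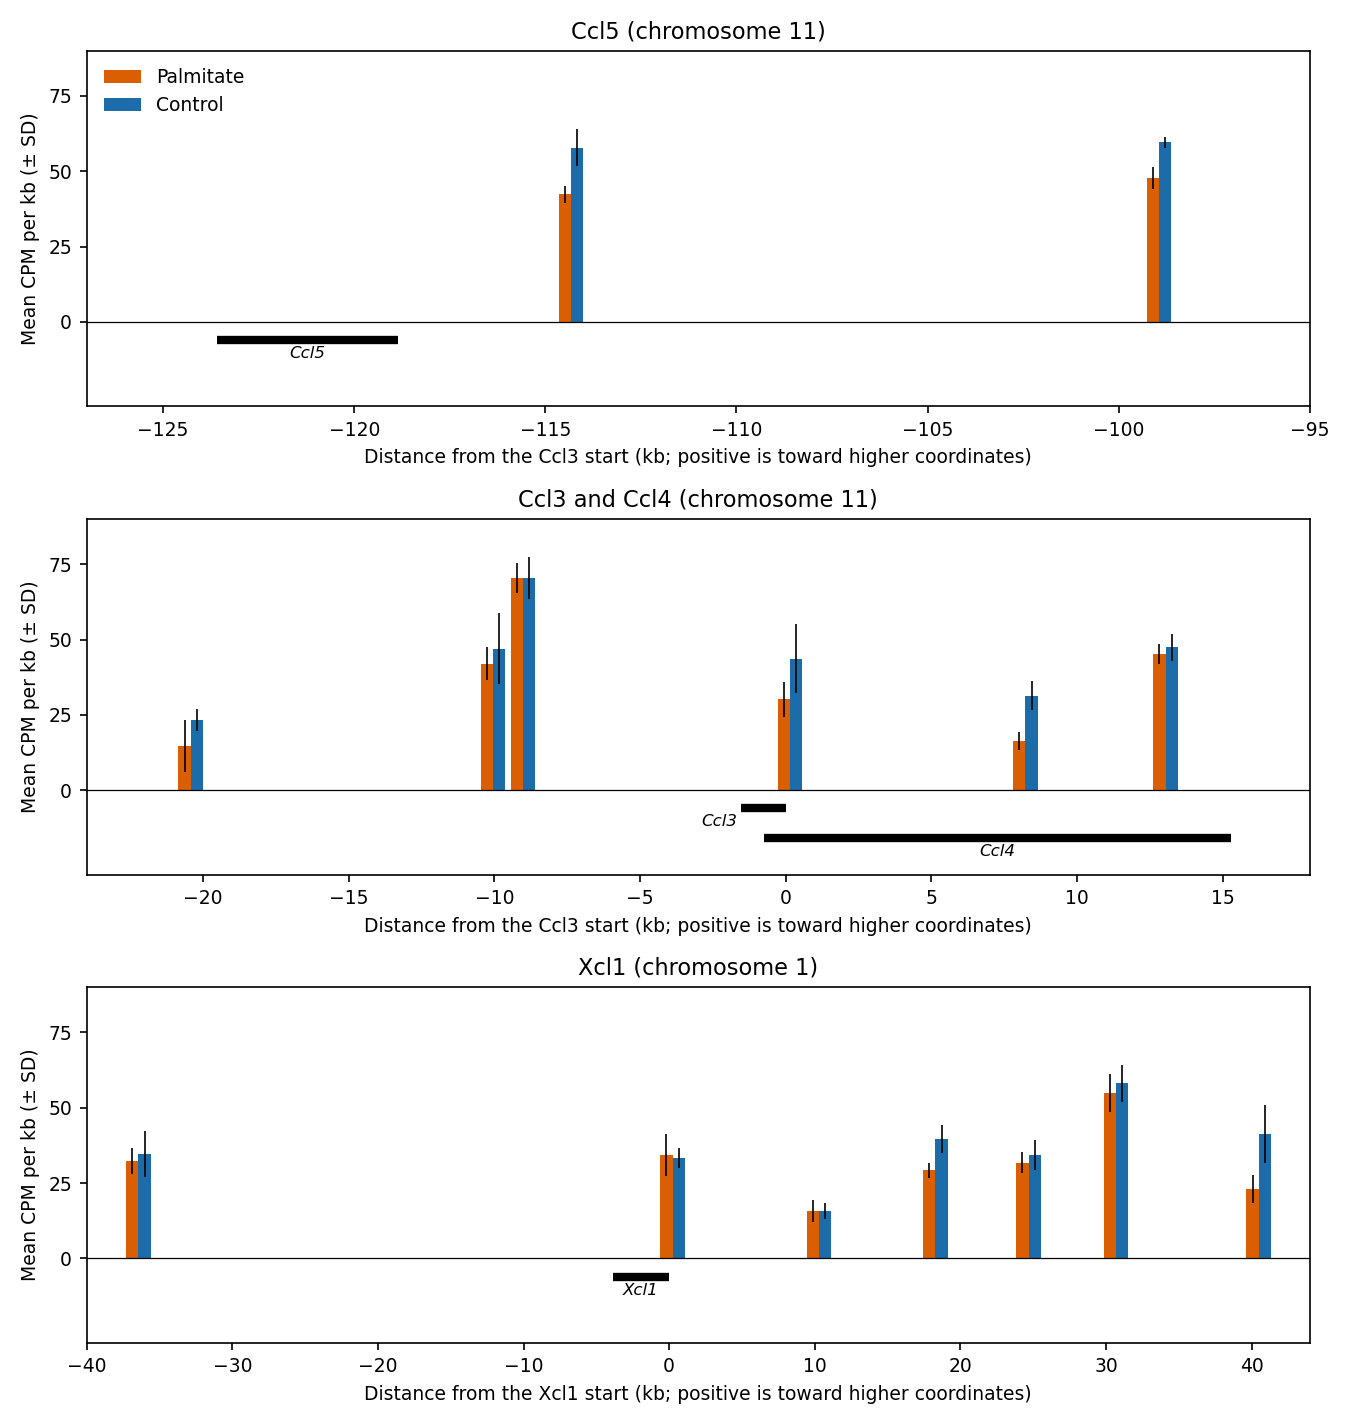
Mean accessibility in CPM per kb of region (y axis, error bars SD, n = 3) against the distance in kb from the annotated start of Ccl3 (upper and middle panels) or Xcl1 (lower panel), for palmitate and control; black lines under the axis are RefSeq gene spans. At Ccl3 and Ccl4 the 2 regions around and just above the Ccl3 start have shorter palmitate bars, while the region 7.18 kb beyond Ccl3 has equal bars of 70.4 and 70.5 CPM per kb.

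Xcl1, whose product attracts cross-presenting dendritic cells, had the most regions and mostly small differences. The region over its start (chromosome 1, 164935498 to 164936019), which holds the promoter sequence above, had 13.8, 20.7 and 19.2 CPM in palmitate libraries and 16.1, 19.3 and 16.7 CPM in controls. The groups overlapped, and the log2 fold change was 0.046, with a 95% interval from -0.36 to 0.45 (normal, from the SE; edgeR adjusted p 0.898). Its sign turned with total counts (-0.071), upper-quartile factors (-0.012), regions of all 6 peak lists alone (-0.043) and without palmitate 2 (-0.075).

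The other 6 Xcl1 regions lay between genes, 5 of them upstream and 1 beyond the 3′ side. The farthest upstream, 40.3 kb away (164975865 to 164976151), was the one that passed the test, lower with palmitate. It had 5.91, 8.15 and 5.75 CPM in palmitate libraries 1 to 3, against 13.5, 8.65 and 13.3 CPM in controls 1 to 3. The groups did not overlap, although control 2 lay close to palmitate 2. The means were 6.61 ± 1.34 CPM with palmitate and 11.8 ± 2.74 CPM in control (SD, n = 3 each), and the log2 fold change was -0.81 with an SE of 0.28 (edgeR adjusted p 0.0338). It was in 1 of 3 palmitate and 3 of 3 control peak lists. The call was lost with trended offsets (log2 fold change -0.47, edgeR adjusted p 0.350), and in DESeq2 (0.156). It was also lost without palmitate 1 (edgeR adjusted p 0.103), palmitate 3 (0.130), control 1 (0.106) or control 3 (0.146).

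This region is the farthest inside the 50 kb limit. The next one out, 54.3 kb from Xcl1, had 6.11 ± 2.30 CPM with palmitate and 4.80 ± 0.802 CPM in control (SD, n = 3 each). The 18.1 kb region had 9.07, 8.49 and 7.67 CPM with palmitate and 10.0, 11.6 and 12.6 CPM in control. Its groups did not overlap, and its log2 fold change of -0.45 ± 0.26 (SE) did not pass (edgeR adjusted p 0.211). The strongest Xcl1 region, 30.4 kb upstream, had 32.6 ± 3.67 CPM with palmitate and 34.5 ± 3.60 CPM in control (SD, n = 3 each). The remaining 3, at 10.1, 24.4 and 32.4 kb, had log2 fold changes of -0.0081, -0.12 and -0.12, and none passed. Summed over its 7 regions Xcl1 had 98.4 ± 4.28 CPM with palmitate and 110 ± 7.20 CPM in control (SD, n = 3 each), and the groups overlapped.

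**Figure D3:**
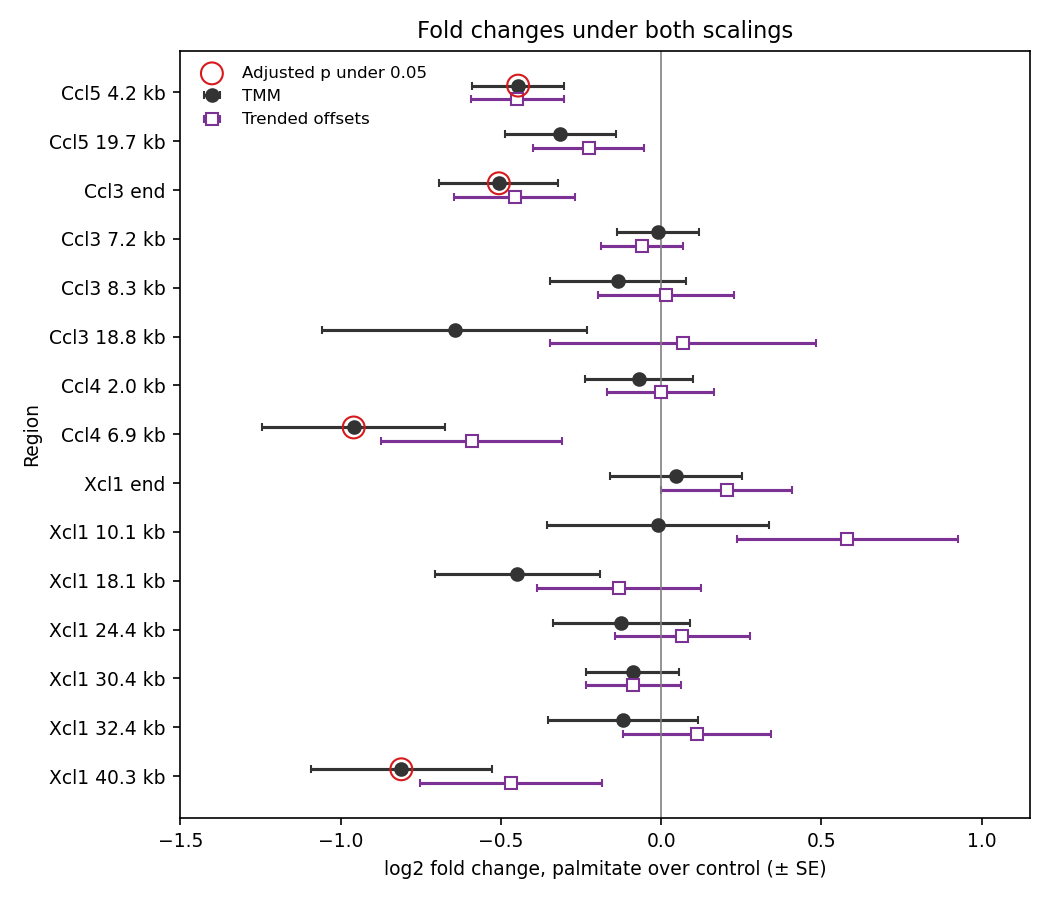
Log2 fold change of palmitate over control (x axis, error bars SE) for each chemokine region (y axis), with TMM factors (filled circles) and with trended offsets (open squares); rings mark an edgeR adjusted p below 0.05, found only with TMM here. Trended values lie further right at the weak regions, as at 10.1 kb from Xcl1 (0.58 with trended offsets, -0.0081 with TMM), and barely move at the Ccl5 region at 4.2 kb.

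Per kb of region, the order of accessibility in palmitate libraries was led by the region 7.18 kb from Ccl3 (70.4 ± 4.96 CPM per kb), ahead of the Xcl1 region at 30.4 kb (54.9 ± 6.18) and the Ccl5 region at 19.7 kb (47.8 ± 3.71, SD, n = 3 each). In control the same region led with 70.5 ± 7.03 CPM per kb, followed by 59.6 ± 1.87 at the Ccl5 region at 19.7 kb, 58.1 ± 6.07 at the Xcl1 region at 30.4 kb and 57.8 ± 6.05 at the Ccl5 region at 4.18 kb. In control the last 3 lay within 1 SD of each other. The lowest in palmitate libraries were 14.7 ± 8.77 (18.8 kb from Ccl3), 15.7 ± 3.71 (10.1 kb from Xcl1) and 16.3 ± 2.98 (the weak Ccl4 region), again within their spread. Among all tested regions the 15 ranked between the 1.04th and 72.7th percentile of mean CPM, and 9 of them below the middle.

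**Figure D4:**
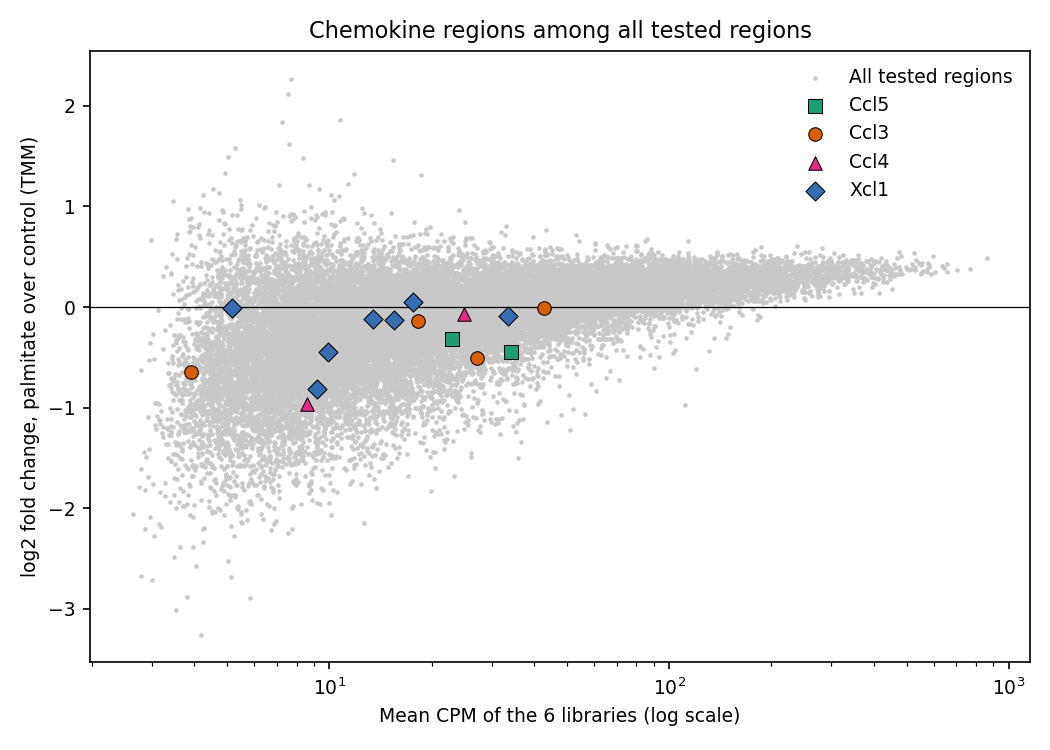
Log2 fold change of palmitate over control with TMM (y axis) against the mean CPM of the 6 libraries (x axis, log scale) for all 24316 tested regions (grey) and the 15 chemokine regions (symbols by gene). Fold changes of all regions shift upward with strength, and the chemokine regions lie in the weak and middle range.

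The peak lists of the same 6 libraries were also read at these loci. Palmitate lists 1 to 3 held 12, 15 and 12 peaks assigned to the 4 genes, and control lists 1 to 3 held 14, 15 and 15. Palmitate lists were also shorter over the whole matrix. There 18762, 19276 and 18928 regions had a peak in palmitate lists 1 to 3, against 20447, 22470 and 22830 in control lists 1 to 3. Of the 15 regions, 10 had a peak in all 6 lists, as did 14761 of all 24605 regions. Scores, which are the authors' own, were 205, 310 and 144 at the nearer Ccl5 region in palmitate lists and 260, 293 and 327 in control lists. At the Ccl3 end they were 154, 182 and 202 in palmitate lists and 265, 177 and 288 in control lists.

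The receptors of these chemokines gave 6 tested regions, with regions at Ccr1 and the scavenging receptor Ackr2 among them and none at Ccr3 or Xcr1. Of the 6, 1 was lower and 0 were higher with TMM, against 12.7% and 11.9% of all tested regions. With trended offsets 0 passed, against 4.36% lower and 2.09% higher among all tested regions. At an unadjusted p below 0.05, 2 of the 6 were lower and 0 higher with TMM, against 19.7% and 16.8% of all regions, and 0 lower and 1 higher with trended offsets, against 11.9% and 10.01%. The region that passed with TMM lay 17.2 kb from Ackr2. It had 3.39 ± 0.980 CPM with palmitate and 6.86 ± 1.84 CPM in control (SD, n = 3 each). Its log2 fold change was -1.05 ± 0.36 (SE), with an edgeR adjusted p of 0.0311, and of 0.479 with trended offsets. The second Ackr2 region, at 7.39 kb, had 10.0 ± 1.70 CPM with palmitate and 13.1 ± 1.74 CPM in control. The regions 25.2 and 21.7 kb from Ccr1 had log2 fold changes of -0.43 and 0.37 and did not pass.

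Other chemokine genes were mostly without regions: 6 of 33 had any, giving 12 tested regions, of which 2 were lower and 2 higher (1 and 1 with trended offsets). Among all tested regions 12.7% were lower and 11.9% higher with TMM, and 4.36% and 2.09% with trended offsets. The region 15.2 kb from Ccl1, a T cell chemokine for CCR8, fell to 11.7 ± 2.72 CPM with palmitate, against 22.7 ± 2.46 CPM in control (SD, n = 3 each; log2 fold change -0.94 ± 0.21 SE, edgeR adjusted p 0.00167), and passed with trended offsets (0.0253). The end of Ccl25, also overlapping Elavl1, rose to 89.6 ± 5.28 CPM with palmitate, against 65.9 ± 6.85 CPM in control (SD, n = 3 each; edgeR adjusted p 0.00121), and did not pass with trended offsets (0.0725). The end of Ccl27a, named after its values were seen, rose to 34.2 ± 3.49 CPM with palmitate, against 23.2 ± 4.28 CPM in control (SD, n = 3 each; edgeR adjusted p 0.0138), and passed with trended offsets (0.0270). A weak region 2.70 kb from Ccl28 fell to 1.96 ± 0.422 CPM with palmitate, against 6.04 ± 0.658 CPM in control (SD, n = 3 each; edgeR adjusted p 0.00374), with an edgeR adjusted p of 0.193 with trended offsets. None of the 33 genes' regions fell between Ccl5 and Ccl3, where Ccl9 and Ccl6 lie.

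Transcription factors known to act on chemokine genes had regions at 26 of 27 genes, 123 in all, of which 14 were lower and 21 higher with TMM, and 9 lower and 4 higher with trended offsets. With TMM 11.4% of the 123 were lower and 17.1% higher, against 12.7% and 11.9% of all tested regions. With trended offsets 4.36% of all tested regions were lower and 2.09% higher. The median log2 fold change of the 123 regions was -0.04. The smallest p belonged to an element inside Nfatc2, an NFAT factor activated by calcium signalling (8.64 ± 0.681 CPM with palmitate and 31.0 ± 9.02 CPM in control, SD, n = 3 each). The end of Relb, an NF-kB subunit, had 477 ± 28.5 CPM with palmitate and 350 ± 18.5 CPM in control, and an element inside Nfkb1, the p105 precursor gene, 26.0 ± 1.49 CPM with palmitate and 47.5 ± 8.27 CPM in control (SD, n = 3 each). With trended offsets these Nfatc2 and Nfkb1 elements still passed (edgeR adjusted p 2.85e-05 and 0.000321) and the Relb end did not (0.352). They do not stand for the whole genes, whose other regions were partly lower and partly did not pass. The end of Nfkb1, named after its values were seen, was higher with palmitate (log2 fold change 0.45, edgeR adjusted p 0.00206). It had 70.5 ± 2.34 CPM with palmitate and 51.5 ± 2.86 CPM in control (SD, n = 3 each), and did not pass with trended offsets (0.0556). Klf13, named after its values were seen because its product is known to bind the human CCL5 promoter, had 333 ± 16.0 CPM at its end with palmitate and 259 ± 9.42 CPM in control (SD, n = 3 each), and did not pass with trended offsets (edgeR adjusted p 0.830).

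The profile most like each gene's strongest region was taken as the smallest root mean square difference of centred log2 CPM over the 6 libraries. For Ccl5 (4.18 kb region) these were regions nearest to Mettl8 (0.0267), Max (0.0474) and Fbxo22 (0.0525). For Ccl3 (7.18 kb region) they were nearest to Xxylt1 (0.0312), Ttc1 (0.0322) and Fis1 (0.0326). For Ccl4 (1.99 kb region) they were nearest to Grhl1 (0.0228), the shared end of Entpd1 and Tctn3 (0.0296), and S1pr1 (0.0323). For Xcl1 (30.4 kb region) they were nearest to Rmdn2 (0.0212), the same Entpd1 and Tctn3 end (0.0313), and B4galt3 (0.0332). With 24316 regions and 6 libraries such close profiles are a description only.

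Counts in regions totalled 2219136 to 3089230 per library, and the 15 regions held 3 to 142 reads per library each. Control 2 stood apart from controls 1 and 3, since the chi-square statistic of their counts over its degrees of freedom was 2.05 and 2.03, where controls 1 and 3 gave 1.20 and pairs of palmitate libraries 1.19 to 1.48. All 7 T cell markers, Cd8a and Cd8b1 included, had a region at a gene end, with summed levels of 309 to 364 CPM in palmitate libraries and 314 to 351 CPM in controls. No region lay at the ends of the 4 NK cell or the 5 B cell markers, nor of Cd4, Foxp3 or Cd40lg. Of 6 myeloid markers Itgam and Spi1 had one, together 20.05 to 24.5 CPM in palmitate libraries and 12.6 to 20.4 CPM in controls. Itgam alone rose with palmitate (9.85 to 13.0 CPM in palmitate libraries and 5.32 to 7.14 CPM in controls, log2 fold change 0.91, edgeR adjusted p 0.0151), and Spi1 did not pass (0.076, edgeR adjusted p 0.866). Of 6 pancreas markers Cela1 had one, at 28.9 to 42.6 CPM in palmitate libraries and 35.4 to 44.4 CPM in controls. Of 4 CD4 T cell markers Zbtb7b had one, at 46.5 to 73.4 CPM in palmitate libraries and 34.9 to 51.4 CPM in controls, and it rose with palmitate (log2 fold change 0.48, edgeR adjusted p 0.0121). The part of other cells in the chemokine results was not tested.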

How the data were processed

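The deposited matrix holds raw counts of ATAC-seq reads in 24605 regions for 6 libraries, and each library has a peak list with a score per peak, as deposited by the authors. The submitters' processing notes list, with no roles, MACS2 2.2.8, edgeR 3.40.2, Bowtie2 2.5.1, Picard 2.23.8 and Trim Galore 0.6.10, and the build mm10. How reads were shifted, regions merged and reads counted is not given in the sources used here. Each region of the matrix overlapped peaks of 2 or more of the 6 lists.

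Gene ends came from 21887 protein-coding genes of GRCm38.p6. Differences were tested over all 24316 regions left by filterByExpr (289 removed) with the two-sided edgeR 4.0.16 quasi-likelihood F-test (R 4.3.3), TMM factors (0.953 to 1.05) and Benjamini-Hochberg adjustment at 0.05. The SE is the absolute log2 fold change over the square root of F. CPM use TMM library sizes. Trended offsets were fitted per library by loess on mean abundance (span 0.3, with 0.5 reads added). Alternatives also included DESeq2 1.42.0, limma 3.58.1, a replicate block, other factors and filters, and leaving out libraries in turn. A further alternative was a false discovery rate of 0.1 in the main fit. Peaks and regions were matched at 1 bp.

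The genes, lists and alternatives were chosen with earlier results of these data known. All regions of the 4 genes are described, and of the 2 longer lists the 3 passing regions with the smallest p. Some receptor results are not reported here.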

Additional observations from a re-analysis of the deposited data

Results flagged for a closer look

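The peak lists held 5 peaks at these loci outside every region of the count matrix, 3 of them in palmitate lists and 2 in control lists, each in 1 list only. The 3 palmitate peaks had no peak of a control list at the same place. One, in palmitate 2, lay 31 bp from the end of Ccl5 (chromosome 11, 83530549 to 83530715) and had a score of 54. Another, also in palmitate 2, lay 49.4 kb from Xcl1 with a score of 49. The last, in palmitate 3, lay 6.35 kb from Ccl3 with a score of 34. The control peaks lay 20.6 kb (control 1, score 73) and 37.4 kb (control 2, score 77) from Xcl1. No counts of these places were analysed here, so no difference between groups was tested.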

How the results depend on the processing

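The 4 lower chemokine regions became 0 with trended offsets, 0 in the DESeq2 Wald test and 2 in regions of all 6 peak lists, where 2 of the 4 are not among the regions tested, and the other causes were not tested. They ranged from 1 to 4 with a library left out, and stayed within 3 to 4 in the other 10 settings. Of these 10, a false discovery rate of 0.1 and a distance limit of 100 kb could not give fewer than 4. Higher chemokine regions numbered 0 in all 19 settings. Same-numbered libraries did not deviate together from their group means (correlations from -0.10 to 0.00), and differently numbered ones gave -0.07 to 0.09. With 3 libraries per group these values cannot show whether the numbers pair the libraries. The 3 lower calls kept with a replicate block were those near Ccl5, Ccl4 and Xcl1, and the block gave 2821 lower and 2712 higher of all regions.

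Of all regions, lower calls numbered 3078, but 1061 with trended offsets, 1236 in DESeq2 and 1462 in regions of all 6 lists, and 1871 to 3391 with a library left out. Higher calls numbered 2894, but 1282 with total counts (4331 lower), 507 with trended offsets, 1888 in DESeq2 and 1376 in regions of all 6 lists, and 2066 to 2774 with a library left out. Total counts moved the median over all tested regions (log2) to -0.16. Lower receptor regions became 0 with trended offsets, in DESeq2, with at least 20 reads in 3 libraries and in regions of all 6 lists (0 to 2 with a library left out). Other chemokines became 1 lower with trended offsets, at least 20 reads or all 6 lists (2 with any library left out) and 1 higher with total counts or trended offsets (1 to 2 with a library left out). Transcription factor regions became 9 lower with trended offsets and 7 in DESeq2 (9 to 18 with a library left out), and 10, 13, 4 and 11 higher with total counts, upper-quartile factors, trended offsets and all 6 lists (15 to 20 with a library left out).

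Fold changes turned sign in 24 of 248 values, none at the 4 called regions. With trended offsets these were 0.11 (32.4 kb), 0.58 (10.1 kb) and 0.066 (24.4 kb) at Xcl1, and 0.068 (18.8 kb) and 0.015 (8.3 kb) at Ccl3. Size factors and the Wald test of DESeq2 gave 0.023 and 0.021 at 10.1 kb from Xcl1, and 0.023 and 0.025 at 7.2 kb from Ccl3. The Xcl1 end gave -0.043 in regions of all 6 lists, -0.012 after upper-quartile scaling and -0.071 after scaling to total counts. With a library left out the ranges were -0.23 to 0.079 (32.4 kb), -0.075 to 0.20 (end), -0.13 to 0.19 (10.1 kb) and -0.18 to 0.023 (30.4 kb) at Xcl1, -0.32 to 0.023 (8.3 kb) and -0.067 to 0.071 (7.2 kb) at Ccl3, and -0.13 to 0.038 (2.0 kb) at Ccl4. The read counts limit the weakest regions.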
